A study of Homo sapiens with 12 samples.

Results

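The effector dCasRx-RBM25 was compared with dCasRx alone in HEK293T, an established human line of embryonic kidney origin. The comparison takes 8 of the 12 poly(A) RNA-seq libraries of the series: the 6 that carried dCasRx-RBM25 and the 2 that carried dCasRx. dCasRx is a nuclease-dead form of the RNA-guided enzyme CasRx, and dCasRx-RBM25 is this protein fused to the splicing factor RBM25. The dCasRx-RBM25 cells received a nontargeting guide RNA (RBM25_NT), a guide to exon 10 of MAPT (RBM25_MAPT) or a guide to exon 13 of CD46 (RBM25_CD46), each in 2 biological replicates, and the dCasRx cells received the nontargeting guide (dCasRx_NT, 2 biological replicates). All cells had been transfected with 200 ng of effector vector and 200 ng of guide vector, and RNA was taken after 48 h. The effectors were transiently overexpressed from vectors. dCasRx was given no MAPT or CD46 guide, so within RBM25_MAPT and RBM25_CD46 the guide and the effector cannot be told apart. The 4 libraries with RBFOX1N-dCasRx-C, a fusion to parts of another splicing factor, are given as levels beside part of the results.

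RBM25 is a nuclear RNA-binding protein with an arginine- and glutamate-rich region. It associates with the U1 small nuclear ribonucleoprotein (U1 snRNP), the particle that pairs with the junction of exon and intron at the 5′ splice site, and with LUC7-like proteins of U1, and it is known for shifting the choice of 5′ splice sites, for example in the apoptosis gene BCL2L1. Base pairing with U1 takes in the last bases of the exon, where the consensus ends in AG. HEK293T cells also carry a viral oncoprotein that binds the tumour suppressor p53.

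A gene was called where edgeR's quasi-likelihood test gave a Benjamini-Hochberg adjusted p under 0.05 for the mean of the 3 RBM25 guide groups against dCasRx_NT. It held where each guide group was also called in the same direction against dCasRx_NT and the pooled call remained when either dCasRx_NT library was left out. Splicing was measured as percent spliced in (PSI), the percent of reads that include an exon, intron or splice site. A splicing event was called at an adjusted p under 0.05 and a PSI difference of at least 10 points in a quasi-binomial model of its reads, and it held by the same rule.

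The 8 libraries held 32487927 to 53985468 counts. RBM25 took 4.08% to 5.69% of the counts in the libraries labelled dCasRx-RBM25. Its level was 42323, 46759 and 59147 CPM (counts scaled to library size; lowest, median and highest of 6 libraries), against 204 and 352 CPM in the dCasRx_NT libraries (log2 fold change 7.46, SE 0.24; edgeR adjusted p 1.53e-09). These counts hold the RBM25 part of the effector together with the cell's own RBM25 mRNA. The 13 HEK293 markers summed to 1327 and 1230 CPM in dCasRx_NT and to 1306 to 1582 CPM in the RBM25 libraries, and 27 markers of other cell types to 22.7 and 21.4 CPM and to 23.2 to 28.2 CPM. Of those 27, INS and TYR were at 0 in all 8 libraries and 18 were under 1 CPM in all of them. The dCasRx_NT replicate 2 library stood apart: on the second principal component (18.2% of the variance) it lay at 70.1, dCasRx_NT replicate 1 at 30.3 and the other 10 between -15.2 and -3.77. Calls of lists and named genes that are lost without it are marked as such below.

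The splicing results turn on exons whose inclusion moved by large steps. The following 8 are cassette exons and a microexon that held, are described below and match an annotated coding exon at both ends. They are read 5′ to 3′ from GENCODE release 29 transcripts (GRCh38), and the capitals mark the last 2 bases, next to the 5′ splice site. The first 4 were less included with dCasRx-RBM25 and the other 4 more included.
WNK4, 122 nt, chr17:42787778-42787899, plus strand: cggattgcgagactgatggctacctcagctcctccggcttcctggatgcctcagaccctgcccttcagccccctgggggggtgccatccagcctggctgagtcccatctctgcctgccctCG
TPCN2, 82 nt, chr11:69085671-69085752, plus strand: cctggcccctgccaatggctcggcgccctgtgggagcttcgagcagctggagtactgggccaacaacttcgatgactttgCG
PNISR, 54 nt, chr6:99403829-99403882, minus strand: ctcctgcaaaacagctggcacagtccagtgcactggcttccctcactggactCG
SUPT5H, 12 nt, chr19:39458294-39458305, plus strand: aagagattgaAG
RBL1, 65 nt, chr20:37067233-37067297, minus strand: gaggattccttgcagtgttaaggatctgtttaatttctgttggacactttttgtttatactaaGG
CTH, 58 nt, chr1:70429794-70429851, plus strand: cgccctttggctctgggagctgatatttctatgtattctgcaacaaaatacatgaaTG
RAD18, 77 nt, chr3:8913644-8913720, minus strand: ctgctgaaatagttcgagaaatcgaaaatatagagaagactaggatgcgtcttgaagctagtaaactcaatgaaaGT
NEMP1, 115 nt, chr12:57064071-57064185, minus strand: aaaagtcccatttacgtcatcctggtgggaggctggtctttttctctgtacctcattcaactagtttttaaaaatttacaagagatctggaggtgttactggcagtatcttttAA

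Of 100377 splicing events tested in 10693 genes, 468 were called higher (0.466%) and 601 lower (0.599%), 1.06% in all. Of these 140 held (0.139%), 46 higher (0.0458%) and 94 lower (0.0936%). Among cassette exons (over 27 nt), loss of inclusion with dCasRx-RBM25 was called more often than gain. Of 48370 tested, 294 were called higher (0.608%) and 470 lower (0.972%), and 27 held higher (0.0558%) and 72 held lower (0.149%), by the quasi-binomial model. But 65.7% of the exons tested had a dCasRx_NT PSI of 90% or more, where a gain of over 10 points is not possible. Of 9372 exons with sequence and a dCasRx_NT PSI of 50% to 90%, 264 were called higher and 221 lower, so the excess of losses was not seen there. The 99 exons that held lay in 88 genes, with several exons each of TBCE, GIGYF1, SAMD11 and MDH1, so they are not independent. Without dCasRx_NT replicate 2, 119 were called higher and 168 lower, and without replicate 1, 212 and 296. With limma on logit PSI in place of the quasi-binomial model, 29 were called higher and 139 lower.

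The largest fall of a cassette exon was in WNK4, the gene of a kinase that controls salt transport in the kidney. Its PSI was 100% and 95.6% in the dCasRx_NT libraries (Wilson intervals 89.8% to 100% and 85% to 98.8%, from 34 and 44 reads) and 47.8%, 56.5% and 60.6% (lowest, median and highest) in the 6 RBM25 libraries. The difference was -41.9 points (SE 3.12; adjusted p 0.000842, quasi-binomial model). The RBFOX1N libraries lay at 44.7% to 58.0% for this exon, a range that overlaps that of the RBM25 libraries. The WNK4 gene itself was among those that rose most in expression.

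An exon of TPCN2, a cation channel of lysosomes, was included at 88.0% and 89.2% in dCasRx_NT and at 40.6%, 50.8% and 53.4% in the RBM25 libraries (difference -39.2 points, SE 5.24; adjusted p 0.00299). Here the RBFOX1N libraries ranged from 65.6% to 88.9%. OTULIN, which removes linear ubiquitin chains, had an exon at 94.2% and 100% in dCasRx_NT and at 67.1%, 68.9% and 71.6% with RBM25. In TMTC3, the gene of a mannosyltransferase of the endoplasmic reticulum, the values were 88.7% and 92.8% against 58.9%, 63.0% and 69.4%. SAMD11 had an exon at 73.0% and 73.4% in dCasRx_NT and at 40.1%, 49.3% and 52.6% with RBM25, and GIGYF1, an adaptor of translational repression, had one at 89.4% and 88.8% against 61.7%, 65.6% and 69.4%. In none of these 6 exons did the RBM25 and dCasRx_NT libraries overlap; over all cassette exons tested, 12.1% were lower without overlap and 8.15% higher.

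GIGYF1 and SAMD11 each had 3 exons that held lower. In GIGYF1 they differed by -23.3, -21.8 and -16.8 points, and in SAMD11 by -25.0, -13.9 and -12.9 points. MDH1, the cytosolic malate dehydrogenase, had 3 as well, at -11.1, -10.7 and -10.7 points. In TBCE, a tubulin-folding cofactor, 4 exons held in the other direction, at 13.4, 14.4, 16.5 and 20.5 points.

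The largest gain of a cassette exon was in RBL1, a pocket protein related to the retinoblastoma protein. Its PSI was 32.9% and 30.8% in dCasRx_NT (Wilson intervals 21.8% to 46.3% and 19.2% to 45.5%, from 53 and 44 reads) and 60.6%, 70.9% and 79.5% in the RBM25 libraries. The difference was 38.6 points (SE 5.74; adjusted p 0.00219, quasi-binomial model), and the RBFOX1N libraries lay between, at 44.8% to 58.6%. LIN37, a subunit of the cell-cycle repressor complex to which pocket proteins bind, had an exon at 51.1% and 56.0% in dCasRx_NT and at 77.7%, 80.2% and 88.8% with RBM25. This exon lies where other genes are annotated on both strands.

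CTH codes for the enzyme that makes cysteine from cystathionine, and its exon was at 69.0% and 65.2% in dCasRx_NT and at 92.2%, 94.9% and 96.8% with RBM25 (difference 27.4 points, SE 2.58; adjusted p 3.38e-06). The RBFOX1N libraries were as high, at 95.2% to 98.8%. An exon of HPS5, needed to form lysosome-related organelles, rose by 25.3 points (SE 4.65) from 61.2% and 68.9% to 84.2%, 90.9% and 95.3%. An exon of RAD18, a ubiquitin ligase of DNA damage tolerance, was at 68.2% and 77.2% against 88.2%, 92.9% and 94.8%, and one of NEMP1, a nuclear envelope protein, at 68.0% and 57.7% against 79.0%, 80.9% and 87.2%. In ZNF397, a zinc finger gene, the values were 67.1% and 63.9% against 83.3%, 86.9% and 90%. All 8 of the largest gains took exons that dCasRx_NT cells included only partly, and no called gain of a cassette exon started from a dCasRx_NT level of 90% or more, where 10 points of room are not left. Of the cassette exons named, the LIN37, NEMP1 and TBCE gains and the HNRNPA2B1 and SAMD11 falls were not called by limma on logit PSI.

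Changed exons also differed by size and by their last bases. The median length was 115 nt over all cassette exons tested, 77 nt for those called higher and 135.5 nt for those called lower; for those that held it was 69 and 123.5 nt. The share with a length divisible by 3 was 37.2% over all, 31.3% of those called higher and 37.2% of those called lower. Median GC content was 49.1% over all, 45.9% and 48.9%. The letters CGGGCA, a sequence that RBM25 is known to bind, were searched on the transcript strand of the exons and stood in 2.48% of all exons with sequence, in 8 of 292 called higher (2.74%) and 11 of 469 called lower (2.35%), and in 0 of 27 and 0 of 72 that held.

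The last base of the exon was G in 79.1% of the 46440 tested exons with sequence, in 65.8% of 292 called higher and in 84.4% of 469 called lower. Among those that held it was G in 51.9% of 27 higher and 94.4% of 72 lower. Both of the last bases were AG in 55.5% of all, 39.7% of those called higher and 64.8% of those called lower, and in 22.2% and 72.2% of those that held. Of the printed exons, the less included end in CG (WNK4, TPCN2, PNISR) or AG (SUPT5H), and the more included in GG (RBL1), TG (CTH), GT (RAD18) and AA (NEMP1). Exons called higher start from lower PSI. Restricted to exons with a dCasRx_NT PSI of 50% to 90%, the AG share was 53.5% of 9372 exons, 39.4% of 264 called higher and 62.0% of 221 called lower.

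The guide groups gave like values against the same dCasRx_NT libraries. The AG share was 37.7%, 35.2% and 35.3% of exons called higher in RBM25_NT, RBM25_MAPT and RBM25_CD46 (0.349%, 0.337% and 0.312% of cassette exons tested) and 71.5%, 69.1% and 67.2% of those called lower (0.765%, 0.678% and 0.784%). By size of the PSI difference alone, without the test and within the range of 50% to 90%, the AG share was 63.9% of 83 exons with a fall of over 20 points and 64.0% of 591 with one of 10 to 20 points, against 47.8% of 716 with a rise of 10 to 20 points and 51.1% of 47 with a larger one. Among called exons without dCasRx_NT replicate 2 it was 40.7% of 118 called higher and 73.5% of 166 called lower. The last bases were chosen for description after other features of these exons had been seen, the exons were picked by the same reads, and no test was made.

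The following events were chosen because they lie in genes of RNA-processing proteins, and whether such genes changed more often than others was not tested. SON, a scaffold of nuclear speckles, lost inclusion of a stretch of 625 nt at chr21:33549476-33550100, from 74.6% and 68.9% in dCasRx_NT to 35.2%, 38.7% and 42.1% with RBM25 (difference -33.2 points, SE 2.56; adjusted p 7.87e-06). RBFOX1N libraries were lower still, at 27.3% to 34.7%. PNISR, a speckle protein with arginine-serine repeats, had its 54 nt coding exon at 54.4% and 53.8% in dCasRx_NT and at 26.6%, 31.1% and 32.4% with RBM25 (-23.6 points, SE 2.07), whereas the RBFOX1N libraries were at 55.9% to 65.4%. In SRRM2, a speckle protein of the spliceosome, an exon of 60 nt was at 90.7% and 88.8% against 70.3%, 73.3% and 73.6% (-17.1 points, SE 0.95; adjusted p 1.19e-06) and at 91.7% to 94.7% with RBFOX1N.

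HNRNPA2B1, an hnRNP, had an exon of 136 nt at 68.0% and 63.4% in dCasRx_NT and at 42.0%, 47.4% and 55.9% with RBM25. One of the alternative 5′ splice sites of SYNCRIP, which codes for another hnRNP, was used at 74.0% and 73.4% in dCasRx_NT and 26.2%, 28.2% and 41.5% with RBM25 (-42.2 points, SE 5.59), the largest fall among the events that held; it rested on 35 to 66 reads per library, and the RBM25_MAPT libraries were the highest, at 41.5% and 38.4%. All of these events held.

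**Figure D1:**
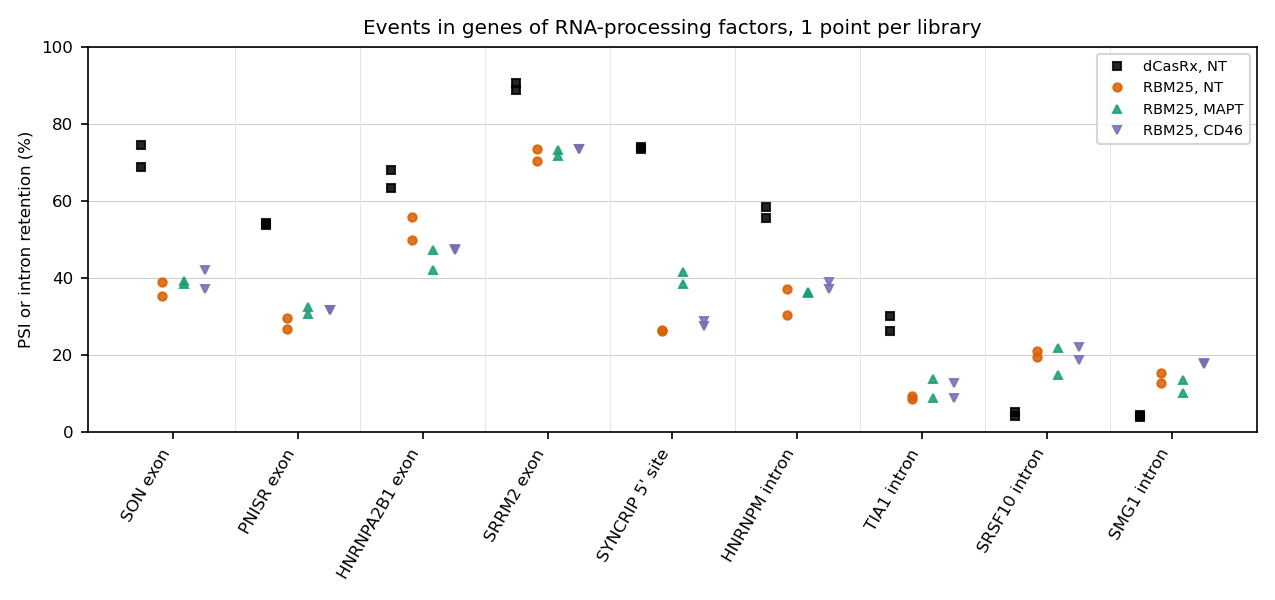
PSI or intron retention (percent) of 9 events in genes of RNA-processing factors, 1 point per library. SON, PNISR, HNRNPA2B1, SRRM2, SYNCRIP, HNRNPM and TIA1 lie lower in every RBM25 library than in both dCasRx_NT libraries. The SRSF10 and SMG1 introns lie higher, and the SMG1 intron was called but did not hold. Over all events tested, 9.29% were lower without overlap and 9.6% higher.

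Retained introns were called more often higher than lower: of 27885 tested, 82 rose (0.294%) and 43 fell (0.154%). Of these 9 held higher (0.0323%) and 8 lower (0.0287%). But the median retention in dCasRx_NT was 2.975% over all introns tested. At or under that level the fall that a call asks for is not possible. The counts therefore cannot decide whether rises were favoured over falls. Without dCasRx_NT replicate 2 the calls were 21 and 18, without replicate 1, 31 and 31, and with limma on logit PSI 32 and 5. The introns that held higher had a median length of 2041 nt and those that held lower of 118 nt, against 733 nt over all introns tested. Over all called introns the medians were 1136 nt for the 82 higher and 1077 nt for the 43 lower, so the lengths of called introns did not show that contrast. An intron of 133 nt in SRSF10, an SR protein, was retained at 5.18% and 4.13% in dCasRx_NT and at 14.8%, 20.1% and 22.0% with RBM25 (14.9 points, SE 1.25; adjusted p 0.000106), against 3.40% to 5.76% in the RBFOX1N libraries. SRSF10 expression was not called (log2 fold change 0.21; edgeR adjusted p 0.125).

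PANK2, a pantothenate kinase, had an intron at 15.8% and 13.8% in dCasRx_NT and at 41.9%, 47.9% and 55.1% with RBM25. UFD1, listed as UFD1L, works in protein degradation, and its intron was at 9.24% and 14.3% against 36.1%, 46.0% and 53%; an antisense gene overlaps it. The remaining pair of the largest rises lay in noncoding genes AC011921.1 and AL035413.1, at 43.5 and 46.0 points, the latter from as few as 22 reads in a library and within an antisense partner of EMC1. A SMG1 intron, in the gene of a kinase of nonsense-mediated decay (NMD), rose by 10.4 points from 3.83% and 4.4% but did not hold. Its call was lost when either dCasRx_NT library was left out. The difference was under the 10 points asked for without RBM25_MAPT replicate 1 (9.81), RBM25_NT replicate 1 (9.92) or the RBM25_CD46 group (8.755).

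Introns of other genes were spliced out more fully. An intron of 119 nt in MRFAP1 was retained at 50.5% and 47.7% in dCasRx_NT and at 23.5%, 28% and 29.6% with RBM25 (-21.9 points, SE 1.46). In HNRNPM, an hnRNP, one of 117 nt was at 55.7% and 58.5% against 30.5%, 36.7% and 38.8%. An intron of TIA1, which helps U1 snRNP to bind weak 5′ splice sites, was at 30% and 26.2% against 8.41%, 9.12% and 13.7%, and one of WDR83 at 35.9% and 31.7% against 11%, 13.9% and 19.2%; another gene overlaps each of these introns. The MRFAP1, HNRNPM and TIA1 falls were called by the quasi-binomial model and not by limma on logit PSI.

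Of alternative splice sites, 43 entries at 3′ sites were called higher (0.323%) and 40 lower (0.301%) of 13301 tested, and 42 (0.405%) and 44 (0.424%) of 10367 at 5′ sites. An event has an entry for each of its sites, and a rise of one takes from the others. The balance of rises and falls is therefore built in. Counted by event, 46 of 6563 were called at 3′ sites and 48 of 5023 at 5′ sites, and 5 and 6 held. Events that held paired up in 2 genes. HSP90AA1, the inducible HSP90 chaperone gene, used one 5′ site at 51.5% and 40.3% in dCasRx_NT and at 78.9%, 80.7% and 85.4% with RBM25, while one of its 3′ sites went from 47.1% and 56.1% to 17%, 21.8% and 25.7%. HSP90AA1 has near-identical copies, so reads could be split. ZWINT, a kinetochore gene, used a 5′ site at 11% and 11.3% against 24.9%, 29.9% and 31.8%, and a 3′ site at 84.2% and 83.2% against 63.9%, 66.3% and 70.4%. The 3′ site of ZWINT was not called by limma on logit PSI.

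The other named sites were lower at EIF2D (-32.2 points), RIOK3 (-25.1), ARID4B (-22.0), TRIP12 (-19.9) and one site of the ribosomal gene RPL41 (-15.2), and higher at NUSAP1 (15.4). Of 454 microexons of 27 nt or shorter, 7 were called higher (1.54%) and 4 lower (0.881%). The 12 nt microexon of SUPT5H, a subunit of a factor that controls RNA polymerase elongation, fell from 84.1% and 83.2% to 67.5%, 70.2% and 72.0%, and was at 92.7% to 95.1% in the RBFOX1N libraries. UCHL1, a deubiquitinase of neurons, had one of 11 nt at 93.5% and 95.4% against 75.4%, 77.9% and 81.3%. An RPL41 microexon rose by 18.9 points, and one listed for DDX11 fell by 15.7 points, although its coordinates lie in an annotated pseudogene, AC009533.1. The NUSAP1 site, both RPL41 events and the SUPT5H and DDX11 microexons were not called by limma on logit PSI.

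The exons that the guides were made for did not hold, since each moved with its own guide. MAPT exon 10 was at 39.6% and 46.1% in RBM25_MAPT and at 2.80% to 3.12% in the other 4 RBM25 libraries, beside 4.31% and 1.05% in dCasRx_NT. CD46 exon 13 was at 15.5% and 17.4% in RBM25_CD46 and at 28% to 37.6% in the other 4, beside 35.9% and 34.7%.

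In expression, edgeR called 3190 of 20593 genes (15.5%), 1506 higher (7.31%) and 1684 lower (8.18%) with dCasRx-RBM25. Of these, 624 held (3.03% of genes tested), 293 higher (1.42%) and 331 lower (1.61%). At least 2-fold changes held in 67 genes higher, RBM25 among them (0.325%), and in 168 lower (0.816%). The median log2 fold change of all genes tested was 0.01. Without dCasRx_NT replicate 2, 1032 genes were called, and without replicate 1, 3214. With 1 dCasRx_NT library the rule can ask only for the pooled call and that of each guide group, which 823 genes met with both libraries (4%), 306 without replicate 2 and 1377 without replicate 1. Without RBM25_CD46 replicate 1, 2079 were called and 277 held. Of the genes tested, 27.4% had no overlap between the 6 and the 2 libraries.

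Among protein-coding genes with at least 2 CPM in one arm, the 10 with the largest rise that held, RBM25 aside, had low levels. None of them passed 36.6 CPM in any library. TNN (ENSG00000120332; chromosome 1, 175067833 to 175148075, GRCh38.p14), which codes for tenascin-N of the extracellular matrix, was at 2.16 and 1.58 CPM in dCasRx_NT and at 9.44, 11.6 and 13.4 CPM (lowest, median and highest) in the RBM25 libraries, with a log2 fold change of 2.58 (SE 0.16; edgeR adjusted p 1.05e-06). FERMT3, the integrin activator of blood cells, was at 4.83 and 4.37 CPM against 21.6, 23.4 and 30.8 CPM (2.41, SE 0.15). The RBFOX1N libraries were at 1.69 to 2.31 CPM for TNN and at 9.51 to 12.8 CPM for FERMT3. SLC17A9, a vesicular nucleotide transporter, was at 1.11 and 1.31 CPM against 3.46, 4.14 and 4.93 CPM, and at 4.83 to 6.13 CPM with RBFOX1N.

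NFATC2, a transcription factor gene whose product acts downstream of calcineurin, rose by 1.58 on the log2 scale, BCL11B, a factor of T cells and neurons, by 1.51, and POU2F2, the B cell factor Oct-2, by 1.38 (SE 0.11). POU2F2 was at 4.60 and 4.42 CPM in dCasRx_NT and at 10.3, 11.8 and 13.1 CPM with RBM25. The potassium channel gene KCNJ14 (1.58), the hair follicle gene TCHH (1.51) and the torsin-like ATPase gene TOR4A (1.44) also held. WNK4 was at 8.62 and 8.60 CPM against 18.8, 21.4 and 28.2 CPM (1.36, SE 0.15), so its mRNA rose while the exon shown above was skipped more; the RBFOX1N libraries were at 19.7 to 23.7 CPM. Markers of other cell types summed to 22.7 and 21.4 CPM in dCasRx_NT and to 23.2 to 28.2 CPM with RBM25, and their part in these rises was not tested.

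Among protein-coding genes with at least 2 CPM in one arm, the largest fall that held was in INPP5D (ENSG00000168918; chromosome 2, 233060342 to 233207903), a phosphatase of inositol lipids known from blood cells. It was at 36.9 and 34.1 CPM in dCasRx_NT and at 2.52, 3.50 and 4.78 CPM in the RBM25 libraries (log2 fold change -3.39, SE 0.13; edgeR adjusted p 5.41e-09). The RBFOX1N libraries were at 32.3 to 37.9 CPM, close to dCasRx_NT. KCNN4, a potassium channel opened by calcium, was at 2.21 and 2.33 CPM against 0.0455, 0.224 and 0.392 CPM (-3.38, SE 0.29); its level in the RBM25 libraries is near 0, so the fold is loosely fixed.

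CYP4F2 and CYP4F3, neighbouring fatty acid hydroxylase genes of similar sequence, fell by 2.87 and 2.75 on the log2 scale, and reads could be shared between them. CYGB, a globin, fell by 2.77. NECTIN4, a cell adhesion gene, was at 11.9 and 12.2 CPM in dCasRx_NT and at 2.08, 2.29 and 3.30 CPM with RBM25 (-2.30, SE 0.12), whereas the RBFOX1N libraries were at 28.3 to 34.4 CPM. ACTA2, the smooth muscle actin, was at 23.1 and 22.9 CPM against 4.38, 5.24 and 6.24 CPM (-2.12, SE 0.11). The desmosome-linked gene PPL fell by 2.24, the mucin gene MUC19 by 2.11 and CUBN, an uptake receptor of kidney and gut, by 2.07. The RBFOX1N libraries were also under dCasRx_NT for ACTA2 (9.53 to 12.5 CPM), MUC19 (1.11 to 1.77 against 2.33 and 2.63 CPM) and CUBN (0.972 to 1.15 against 3.32 and 3.67 CPM). For PPL, CYGB, CYP4F2 and CYP4F3 they were not all under dCasRx_NT.

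Most genes of the p53 target list fell. Of 30 tested, 21 fell and 16 held, and 0 rose; at an unadjusted p under 0.05 the counts were 24 lower and 0 higher, and DESeq2 called 21 and 0. The median log2 fold change of the list was -0.45, against 0.01 for all genes tested, of which 8.18% were called lower and 1.61% held lower. The list was chosen with earlier results of these data known, which already showed its direction under the nontargeting guide, so it is no independent evidence. Over all alternatives 16 to 22 of the list were called lower, with 16 when dCasRx_NT replicate 2 was left out. The count that held ranged from 8, without RBM25_CD46 replicate 2, to 18.

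TP53I3, a quinone oxidoreductase induced by p53, was at 21.2 and 20.7 CPM in dCasRx_NT and at 5.17, 6.13 and 7.08 CPM with RBM25 (-1.79, SE 0.08; edgeR adjusted p 6.41e-08), and at 30.5 to 34.1 CPM with RBFOX1N. GDF15, a secreted stress cytokine, was at 57.4 and 57.2 CPM against 10.2, 18.4 and 23.1 CPM (-1.68, SE 0.16), and at 216 to 250 CPM with RBFOX1N. The death receptor gene FAS was at 12.8 and 14.4 CPM against 6, 6.78 and 8.01 CPM. The groups did not overlap for these genes. The same was true of 27.4% of all genes tested, 13.3% in the lower direction. CDKN1A, the p21 cell cycle inhibitor, was at 175 and 145 CPM against 80.4, 98.1 and 114 CPM (-0.72), and MDM2, the ubiquitin ligase that degrades p53, at 160 and 167 CPM against 92.8, 106 and 116 CPM (-0.62).

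SPATA18 (-1.12), EDA2R (-1.15), PLK3 (-1.06) and the antiproliferative gene BTG2 (-0.88) held as well, as did the proapoptotic BAX (-0.58) and the sestrins SESN1 (-0.44) and SESN2 (-0.41). Of the 9 that were not called, BBC3 was at 69.0 and 70.6 CPM against 43.3 to 88.0 CPM and CCNG1 at 189 and 234 CPM against 188 to 232 CPM, with overlapping groups. The activity of p53 was not measured.

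**Figure D2:**
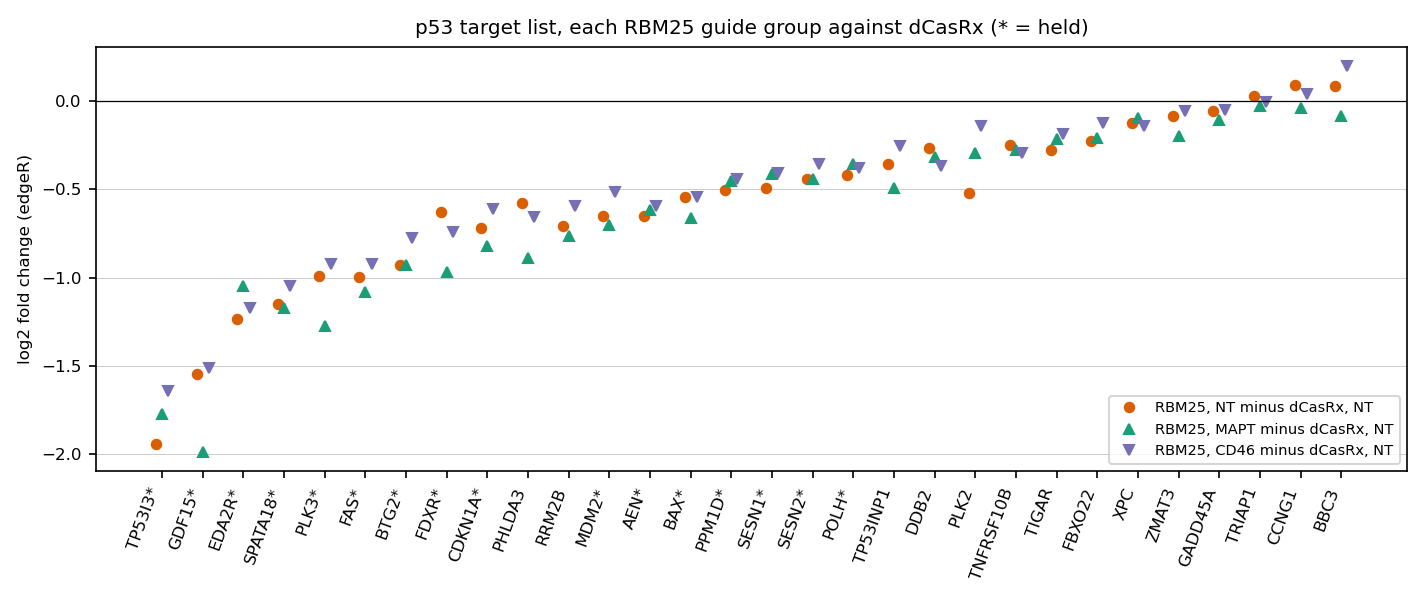
Log2 fold change (edgeR) of the 30 p53 targets in each RBM25 guide group against dCasRx_NT; asterisks mark those that held. From TP53I3 (-1.94, -1.77 and -1.64 in RBM25_NT, RBM25_MAPT and RBM25_CD46) to POLH the values lie under 0 in all 3 guide groups, which share the dCasRx_NT libraries.

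Among stress genes, DDIT3, a transcription factor of the integrated stress response, was at 14.5 and 16.9 CPM in dCasRx_NT and at 6.84, 7.74 and 8.90 CPM with RBM25 (-1.02, SE 0.10). Its level was 19.2 to 23.4 CPM with RBFOX1N. DDIT3 and SESN2, which is on both lists, were the 2 held of 25 tested genes of the ATF4 list, whose median was 0.05. For comparison, 7.31% of all genes tested were called higher, 8.18% were called lower and 3.03% held. HSPA6, an inducible HSP70 gene with close copies, was at 22.9 and 23.3 CPM against 11, 12.6 and 14.9 CPM, and lower still, at 4.28 to 7.53 CPM, with RBFOX1N. It was the 1 held of 29 heat shock genes, of which 3 rose and 3 fell. Of 30 interferon response genes, IFI35 (-1.76) and ISG20 (-1.22) held lower. IFI35 was at 5.45 and 4.88 CPM against 0.981, 1.54 and 1.99 CPM, and the RBFOX1N libraries were as low, at 1.87 to 2.38 CPM. ISG20 was at 3.38 and 4.56 CPM in dCasRx_NT and at 1.73 to 2.81 CPM with RBFOX1N.

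Calls in immediate early genes were fewer without the dCasRx_NT replicate 2 library, as were calls over all genes. Such a loss does not set this list apart. Of 33, 10 rose and 1, FOSL1, fell, with a median of 0.25, and 0 held (by DESeq2 also 0). Over all genes 7.31% were called higher and 8.18% lower. FOS was at 10.5 and 8.66 CPM in dCasRx_NT and at 12.3, 13.3 and 15.8 CPM with RBM25, and its call was lost without replicate 2 (log2 fold change 0.51, and 0.36 without it). Of 20 YAP and TEAD targets, 9 rose and 1 fell, and fewer were called higher without dCasRx_NT replicate 2. LATS2, the kinase that restrains YAP, held at 24.9 and 25.6 CPM against 35, 41.1 and 44.0 CPM (0.67, SE 0.08).

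Genes of splicing factors were called higher or not at all, apart from a pair of brain factors, and most of these calls were lost without dCasRx_NT replicate 2. Calls over all genes were also fewer without it, so the loss does not set these lists apart. Over all genes 7.31% were called higher and 8.18% lower. Of 14 SR protein genes edgeR called 0, with 2 higher at an unadjusted p under 0.05 and 0 called by DESeq2. Of 23 genes of the U1 snRNP and RBM25-related list 5 rose. RBM25 held, but its counts include the effector, so its rise was set by the design. SRRM1 (0.39), SRRM2 (0.41), PNISR (0.33) and LUC7L3 (0.30) did not hold. The calls of all but RBM25 were lost without dCasRx_NT replicate 2.

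Of 28 hnRNP genes 2 rose, HNRNPA1 (0.22, and 0.19 without that library) and HNRNPR (0.25 and 0.18). Of 17 NMD factors 3 rose, with RBM8A (0.35 and 0.40), and of 19 genes for 3′ splice site recognition 3, with CHERP (0.46 and 0.30) and RBM39 (0.31 and 0.27). None of these held, and without that library 0 genes of these 3 lists were called. The calls of HNRNPA1, HNRNPR and RBM8A were also lost without replicate 1. Of 19 genes of the RBFOX, MBNL, CELF and neuronal splicing factor list, with a median of 0.06, RBFOX2 (0.27) rose and CELF3 (-1.14) and SRRM3 (-1.0) fell, and the latter 2 held. SRRM3, which promotes microexons, was at 19.1 and 16.7 CPM against 6.49, 9.04 and 10.5 CPM, and at 9.10 to 11.7 CPM with RBFOX1N. CELF3 was at 5.45 and 4.34 CPM in dCasRx_NT and at 5.82 to 8.19 CPM with RBFOX1N.

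In the remaining lists 0 to 3 members held, where 3.03% of all genes did. Calls over all genes were 7.31% higher and 8.18% lower. HSD17B7 (-0.62) and PMVK (-0.47) of 24 cholesterol synthesis genes held lower, among 3 that rose and 3 that fell. Of 20 replication-dependent histone genes 4 rose and 3 fell, and H2BC21 (0.70) held higher and H4C3 (-1.85) lower. RPL22 (0.43) held of 43 ribosomal protein genes, of which 6 rose. SNHG3 (0.54), a host of small nucleolar RNAs, held of 15 host genes, of which 2 rose and 1 fell. Of 36 integrin, matrix and adhesion genes 4 rose, of which TNN and FERMT3 held, and NECTIN4 fell and held. Of 25 genes of inositol lipid and calcium signalling 4 rose without holding, and INPP5D and KCNN4 fell and held. Of 17 genes of the BCL2 family 3 rose without holding, and BAX fell and held. The rises of the cholesterol, inositol and BCL2 lists lost their calls without dCasRx_NT replicate 2, where calls over all genes were fewer too.

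Of all genes tested, 7.31% were called higher and 8.18% lower, which is the share to set beside the counts with all libraries here. In the following lists rises did not hold and most were lost without dCasRx_NT replicate 2, ACTA1 aside. Calls over all genes were also fewer without it, so the loss does not set these lists apart. Of 32 mitosis genes 4 rose, with PLK1 (0.28, and 0.20 without it) and KIF23 (0.27 and 0.23), and 1 fell; without it 0 were called. Of 19 glycolysis genes 4 rose, with ALDOC (0.50 and 0.49) and HK2 (0.34). HK2 (0.21) lost its call without dCasRx_NT replicate 1, and ALDOC lost it without replicate 1 and also without replicate 2. Of 21 genes of ER chaperones and the unfolded protein response HSPA5 (0.30 and 0.21) and DNAJB9 (0.36 and 0.42) rose, and both calls were lost without dCasRx_NT replicate 2. DNAJB9 also lost its call without replicate 1 (0.29), its groups overlapped, and its log2 fold change in RBM25_CD46 was 0.06. Of 12 tested HEK293 markers 3 rose, with LHX1 (0.50 and 0.41) and SALL1 (0.34 and 0.18), and these calls were lost without dCasRx_NT replicate 2. Of 13 tested markers of other cell types, with a median of -0.12, ACTA1 (0.80), a near copy of other actins, held higher, and the neuronal genes SNAP25 (-1.47) and SYN1 (-0.78) fell without holding.

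Calls in pseudogenes and in 3 mitochondrial mRNAs depended on the dCasRx_NT replicate 2 library. The shares over all genes tested were 7.31% called higher and 8.18% called lower. Of 1218 pseudogenes by RefSeq type, 51 were called higher and 234 lower, with a median log2 fold change of -0.50, whereas without that library 26 were called higher and 12 lower, with a median of 0.09. Of 13 mitochondrially encoded mRNAs, with a median of 0.02, MT-ATP8, MT-ND3 and MT-ND4L (-1.12) fell without holding, and without that library 0 were called. MT-ATP8 was at 16.6 CPM in dCasRx_NT replicate 1 and at 68.0 CPM in replicate 2, and at 15.6, 18.7 and 21.9 CPM with RBM25. Its log2 fold change of -1.18 was 0.16 without replicate 2, and that of MT-ND3 went from -0.78 to 0.019. The 14424 protein-coding genes had a median of 0.02, with 221 held higher and 264 lower.

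Of the 88 genes with a cassette exon that held, 84 were tested for expression. In level, 16 of them were called higher and 5 lower (25% in all, against 15.5% of all genes tested, in the same libraries), and 3 held. These were WNK4 and KIF18B (0.60), which rose, and C1orf112 (-0.75), which fell. KIF18B is a mitotic kinesin. Genes with enough reads for a splicing test are also those with more reads for an expression test, and the part of depth in this share was not tested.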

How the data were processed

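Poly(A) RNA of HEK293T cells had been sequenced as 150 nt read pairs from a directional kit, per the labels' protocols. The authors deposited raw counts for 62710 genes in 12 libraries; the submitters' processing notes name STAR 2.7.10, edgeR and hg38, while the annotation, strand setting and vast-tools version used were not given in any of these sources. The authors deposited percent spliced in, with corrected inclusion and exclusion reads, for 721551 splicing events. Here the counts of all 12 libraries were fitted with edgeR 4.0.16 (R 4.3.3; TMM, filterByExpr, 6 group means, quasi-likelihood test), and 20593 genes passed the filter. CPM uses TMM-scaled library sizes. Inclusion and exclusion reads of 100377 events, with at least 20 reads in every library and 24 of the less used form over all, were fitted with a quasi-binomial model (moderated dispersion of at least 1, F test). All p-values were adjusted by Benjamini-Hochberg over all genes or events. Intervals are 95% Wilson intervals of counting error only. Both fits were tested on simulated data. Library totals ran from 32487927 to 53985468. Gene types and gene coordinates came from RefSeq (GRCh38.p14) by symbol and exon sequences from GENCODE release 29. Events within a gene can share reads, and reads of near-identical genes could be split.

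Genes named are RBM25, up to 10 held protein-coding genes in each direction by fold with at least 2 CPM in one arm, and from each list up to 3 held members or, with none held, 2 called ones. Events named are up to 8 held cassette exons in each direction and up to 4 of each other class, with those in RNA-processing genes. The p53 members, the other list members given only by fold change, and the last bases of exons were described after their values were seen. The members and lists were chosen with earlier results of these data known. Alternatives were other normalizations, filters, tools (DESeq2 1.42.0, limma 3.58.1), sample sets, a replicate block and each library or guide group left out. Intron sequence was not used here. Some named genes and events are not reported here.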

Additional observations from a re-analysis of the deposited data

Results flagged for a closer look

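Of 102 gene or event values checked over the 6 RBM25 libraries, 11 had 1 library far from the other 5 by Dixon's criterion, which chance meets in about 1 of 20 groups. The RBM25_NT replicate 1 library was the highest for FERMT3 (30.8 CPM) and KCNJ14 (16.4 CPM) and the lowest for the HNRNPM intron (30.5%). RBM25_NT replicate 2 was the lowest for SALL1 (50.4 CPM). RBM25_MAPT replicate 2 was the lowest for CHERP (261.4 CPM), FOSL1 (2.87 CPM) and the ZWINT 5′ splice site (24.9%), and the highest for RBM39 (482.8 CPM) and KIF23 (131.5 CPM). RBM25_MAPT replicate 1 was the highest for PMVK (32.0 CPM), and RBM25_CD46 replicate 1 the highest for MUC19 (0.981 CPM).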

How the results depend on the processing

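Of 58 named genes, 40 kept direction and call under every alternative run, and of 44 named events 27 did; 18 genes and 17 events lost a call under at least 1. With 1 library left out at a time, for MT-ND3, log2 fold change ran from -1.28 to 0.019, and for MT-ATP8, log2 fold change ran from -1.85 to 0.16; both reversed without dCasRx_NT replicate 2. Leaving out 1 library at a time gave 1032 to 4542 genes called, 273 to 1377 held and 12 to 471 pseudogenes lower; 383 to 1039 events called and 102 to 187 held; 119 to 311 cassette exons higher and 168 to 481 lower; and an AG share of 64.6% to 73.5% of those lower. With the 8 libraries alone, 1778 genes were called and 229 held, 86 pseudogenes were lower and 69 events held. Leaving out the RBM25_CD46 group gave 1908 genes and 87 pseudogenes lower, and no filter on low counts gave 408 pseudogenes lower. At 15 points, 446 events were called and 63 held, with 106 cassette exons higher, 186 lower and an AG share of 69.7% of those lower. With limma on logit PSI, 257 events were called, 29 cassette exons higher and 139 lower. The causes were not tested. p53 targets called lower ran from 16 to 22 and held from 8 to 18 over the alternatives. Where a dCasRx_NT library was left out, held asks only for the pooled call and that of each guide group.

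Replicate differences correlated over genes at 0.0996, 0.105 and 0.166 between the 3 RBM25 groups and at -0.098 to 0.032 between all other groups; the labels tie no number to a shared batch, and the numbers were not taken to pair the libraries. With the replicate block, 3608 genes were called and 704 held, and 978 events were called and 89 held. With 2 dCasRx_NT libraries the precision rests on a spread shared by all groups.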
